A study of Oryctolagus cuniculus with 9 samples.

Results

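The genes described here encode matrix glycoproteins and matricellular proteins, and were taken by symbol from a list of 10 (FN1, TNC, THBS1, THBS2, POSTN, SPARC, FBN1, FBLN1, MATN3 and ELN). Of these, 9 matched a locus in an expression table of 19511 loci, each in a single row, and FBN1 was not analysed here. A level of at least 1 FPKM in at least 3 libraries was reached by 8 of the 9 on the scale described below, and 10550 loci were tested in all. FBLN1 did not reach that level and was not tested.

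Matrix glycoproteins are secreted proteins that build the scaffold outside cells and connect it to integrins and other receptors at the cell surface. Matricellular proteins such as thrombospondins, tenascin C, periostin and SPARC add little mechanical strength themselves. They tune cell adhesion, growth factor access and collagen assembly, and are typically made in quantity during tissue remodelling. Fibroblasts and other stromal cells are their main source in most tissues.

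The study used primary rabbit parathyroid cells in 3 groups with 3 libraries each. GA+H/R cells were given gallic acid, a plant phenol with antioxidant activity, at 1200 µM for 24 h and then put through a 6H-6H schedule, read here as 6 h of hypoxia and 6 h of reoxygenation. H/R cells went through that schedule without gallic acid, and control cells were untreated and labelled as day 0. The labels do not state whether cells of different groups spent equal time in culture, nor whether each library had its own animal or culture, and p-values therefore measure only the spread between libraries, which may be technical. FPKM (fragments scaled for transcript length and library size) was the only measure, and the read depth behind it is unknown. Levels are therefore compared between groups for each gene and not between genes.

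Summed FPKM averaged 498124 ± 26668 in GA+H/R, 744230 ± 12247 in H/R and 1674790 ± 24633 in control libraries (SD, n = 3). As deposited, the log2 change of the median tested locus was -1.25 between H/R and control and -0.50 between GA+H/R and H/R. Log2 changes below are for that reason given relative to the median locus (libraries were rescaled until the typical locus lay level), and "rose" and "fell" refer to that scale. Control 1 correlated across loci at 0.984 and 0.983 with controls 2 and 3, which correlated at 0.997 with each other, while pairs of GA+H/R libraries correlated at 0.986 and pairs of H/R libraries at 0.992. The cell type label was checked against markers. PTH, the parathyroid hormone gene, was between 0 and 0.142 FPKM. Of 10 fibroblast markers with a row, 9 were at 1 FPKM or more in every library, and of 6 epithelial markers with a row 0 reached 1 FPKM in any library. Of 2 endothelial markers tested, 1 rose and 0 fell in either comparison below.

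FN1 encodes fibronectin, a large adhesive glycoprotein that cells assemble into fibrils through integrins. It was at 289, 294 and 291 FPKM in GA+H/R, at 894, 896 and 895 in H/R and at 5075, 4706 and 4851 in control libraries. The groups did not overlap, and libraries of a group lay within a few percent of each other, with a coefficient of variation of 0.842% in GA+H/R, 0.111% in H/R and 3.82% in control. In these bulk samples fewer cells of a type and less RNA per cell cannot be told apart.

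TNC encodes tenascin C, a matricellular protein that loosens cell adhesion and is best known from wounds and developing tissue. It was at 322, 318 and 321 FPKM in GA+H/R, at 1141, 1146 and 1111 in H/R and at 5850.25, 5719 and 5815 in control libraries. As with FN1, the controls were close together and far above the other groups.

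THBS1 and THBS2 encode thrombospondins, trimeric calcium-binding glycoproteins that bind CD36, CD47 and integrins and restrain angiogenesis. Thrombospondin-1 can also activate latent TGF-beta. THBS1 was at 91.0, 91.9 and 91.3 FPKM in GA+H/R, at 272, 270.3 and 269.9 in H/R, and at 1243, 2398 and 2412 in controls 1, 2 and 3. THBS2 was at 32.6, 31.8 and 38.7 FPKM in GA+H/R, at 124, 117 and 119 in H/R, and at 628, 1568 and 1593 in the same controls. No library of one group overlapped another group for either gene, but control 1 lay well under the other controls.

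POSTN encodes periostin, a matricellular protein of fibroblasts that binds integrins and helps collagen fibrils form. It was at 0.333, 0.403 and 0.449 FPKM in GA+H/R, at 1.96, 1.72 and 2.24 in H/R, and at 9.81, 76.4 and 70.2 in controls 1, 2 and 3. The groups were separate, and the controls themselves spread over 7.79-fold. POSTN was under 1 FPKM in every GA+H/R library and passed the expression filter through the other groups.

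SPARC (osteonectin) binds collagen and calcium and guides the deposition of collagen fibrils. It was at 892, 879 and 891 FPKM in GA+H/R, at 2218, 2199.8 and 2196 in H/R, and at 10618, 13944 and 13876 in controls 1, 2 and 3. Control 1 was again the lowest control, still above every H/R library.

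MATN3 encodes matrilin-3, an adaptor protein best known from cartilage matrix. It was at 1.64, 1.79 and 1.59 FPKM in GA+H/R, at 7.68, 5.31 and 7.47 in H/R, and at 28.7, 100.6 and 88.5 in controls 1, 2 and 3. ELN encodes elastin, the core of elastic fibres. It was at 0.754, 0.568 and 0.881 FPKM in GA+H/R, at 3.63, 2.95 and 3.73 in H/R, and at 16.6, 10.2 and 8.81 in controls 1, 2 and 3. For ELN, control 1 was the highest control. FBLN1, a fibulin that binds fibronectin and elastic fibres, was at 0.0854, 0.0642 and 0 FPKM in GA+H/R, at 0.0909, 0.0718 and 0.0605 in H/R and at 0.315, 0.174 and 0.221 in control libraries. It was thus at or near the bottom of the measured range in all groups.

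**Figure D1:**
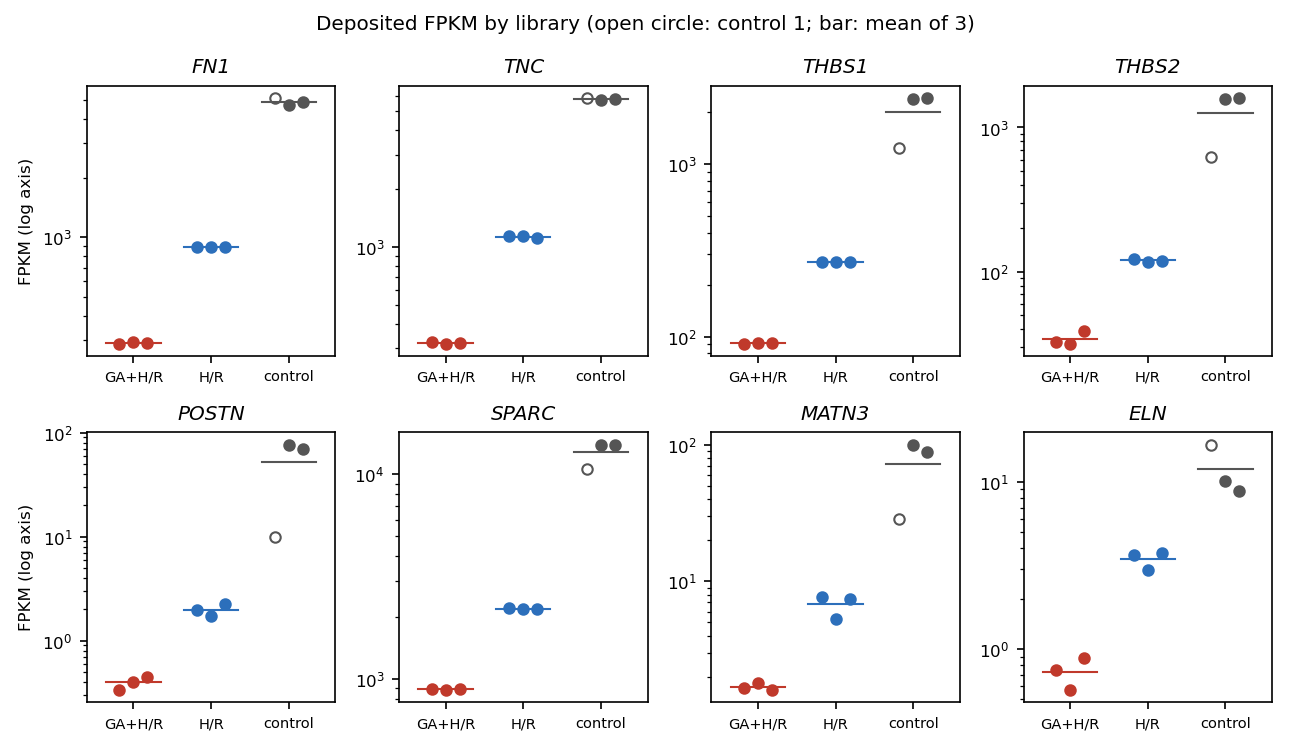
Deposited FPKM on a log axis for the 8 tested genes, with a point for each library, a bar for the mean of 3 and an open circle for control 1. GA+H/R libraries lie lowest and control libraries highest in every panel, the order that summed FPKM also follows. Control 1 departs from the other controls for THBS1, THBS2, POSTN, MATN3 and, in the other direction, ELN.

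H/R cells were set against control cells to see what hypoxia followed by reoxygenation did to these transcripts. Of the 8 tested genes 7 fell, 0 rose and ELN did not pass, while 29.1% of all 10550 loci were called lower. Their median log2 change was -1.21, set against 0.00 for all loci tested. As deposited, all 8 were called lower, among 86.0% of loci called lower on that scale, and their median was -2.68 against -1.25 for all loci. Without control 1, 7 of 8 fell, among 29.6% of loci. Long housekeeping transcripts, a list of general genes with large mRNAs, moved in the same direction, with 27 of 33 having fallen, 0 having risen and a median of -0.44. Short housekeeping transcripts had 20 of 22 rising and a median of 1.03, which was -0.25 as deposited. The part of transcript length in the change of the matrix genes was not tested.

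Among the adhesive and matricellular genes, POSTN changed most, by -2.41 ± 0.63 on the log2 scale (SE, adjusted p = 0.0094). It averaged 1.97 ± 0.263 FPKM in H/R and 52.1 ± 36.8 in control cells (SD, n = 3 each), and 0.0190% of tested loci had a lower value. THBS2 fell by 1.80 (SE 0.34, adjusted p = 0.00171) and THBS1 fell by 1.37 (SE 0.25, adjusted p = 0.00147). The controls behind these 3 values were uneven, and without control 1 POSTN was at -3.28, THBS2 at -2.28 and THBS1 at -1.72.

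The abundant genes FN1, TNC and SPARC had smaller fitted changes. The ratios of THBS1, THBS2 and POSTN to FN1 nonetheless overlapped between H/R and control libraries. That overlap came from control 1, and in controls 2 and 3 each of these ratios lay above all H/R libraries. FN1 was at 18.3% of its control FPKM in H/R cells and at 50.6% relative to the median locus, a log2 change of -0.98 ± 0.04 (adjusted p = 1.87e-07). TNC changed by -0.89 ± 0.05 (adjusted p = 1.005e-06) and SPARC, whose controls were less even, by -1.06 ± 0.13 (adjusted p = 1.13e-04), or by -1.23 without control 1. Only 4.46% of tested loci lay below FN1 and 6.23% below TNC.

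MATN3 fell by 1.66 (SE 0.42, adjusted p = 0.00804), and was at -2.23 without control 1. ELN was at -0.23 ± 0.17 (adjusted p = 0.287), with H/R and control libraries overlapping once levels were taken relative to the median locus. Without control 1 its value was -0.03 (adjusted p = 0.847), and as deposited it was called at -1.49 (adjusted p = 7.01e-05). With FBLN1 brought in by removing the filter, its change was -0.02 ± 0.05 (adjusted p = 0.851).

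**Figure D2:**
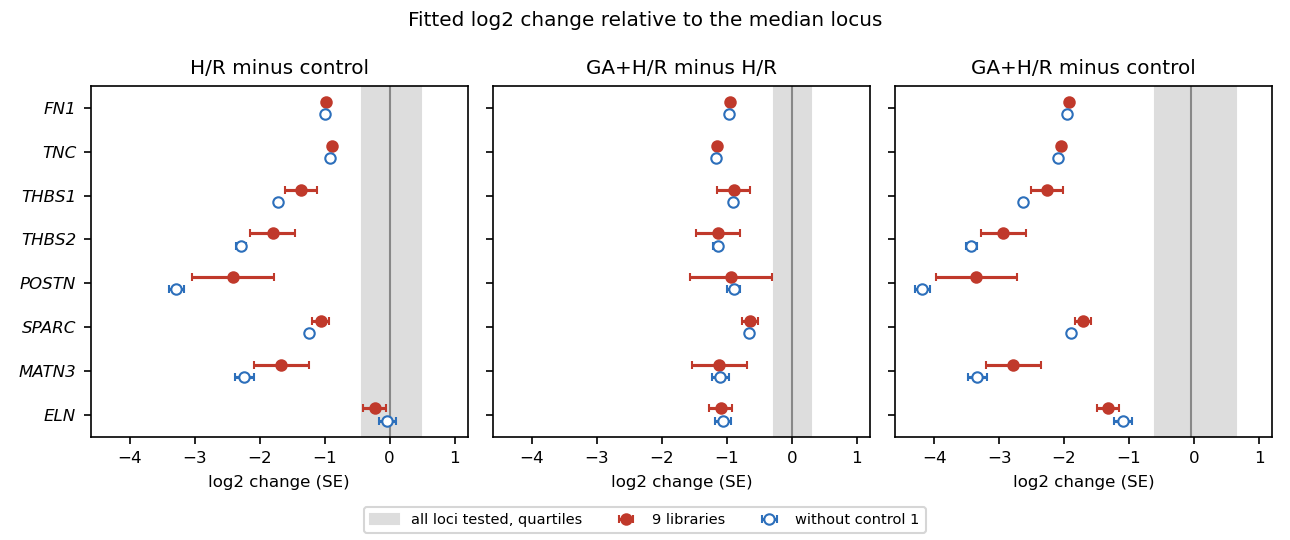
Fitted log2 change relative to the median locus, with its SE, for each gene in 3 comparisons, from 9 libraries (filled) and without control 1 (open). The grey band spans the quartiles of all 10550 tested loci, from -0.42 to 0.49 in H/R minus control and from -0.27 to 0.29 in GA+H/R minus H/R, and apart from ELN in the first comparison every gene lies below it.

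GA+H/R cells were set against H/R cells to see what gallic acid given beforehand changed under the same injury. For all 8 tested genes the highest GA+H/R value lay below the lowest H/R value, in FPKM and relative to the median locus. The share of all loci separated in this way is not given here. In the fit, 6 of the 8 genes fell, 0 rose and 2 (MATN3 and POSTN) did not pass, while 15.5% of all loci were called lower. The median log2 change was -1.02, against 0.01 for all loci. As deposited 7 were called lower, among 64.3% of loci, with a median of -1.54 against -0.50. Long housekeeping transcripts had 24 of 33 falling, 0 rising and a median of -0.56.

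TNC fell to 28.3% of its H/R level in FPKM in GA+H/R cells, a log2 change of -1.15 ± 0.05 (adjusted p = 3.77e-06). FN1 followed at -0.95 ± 0.04 (adjusted p = 4.34e-06) and SPARC at -0.64 ± 0.13 (adjusted p = 0.00478), the smallest change of the 8. ELN, which had not passed between H/R and control, averaged 0.734 ± 0.157 FPKM in GA+H/R and 3.44 ± 0.424 in H/R cells (SD, n = 3 each). Its log2 change was -1.10 ± 0.17 (adjusted p = 0.00166), and it held under each of 18 alternative settings. Whether gallic acid changed ELN more than the hypoxia and reoxygenation did was not tested.

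The remaining genes had uneven controls, and all 9 libraries enter the fitted error. THBS2 changed by -1.13 ± 0.34 (adjusted p = 0.0306) and THBS1 by -0.89 ± 0.25 (adjusted p = 0.0231). These calls were lost without a filter (adjusted p of 0.0710 for THBS2 and 0.0558 for THBS1) and without any single GA+H/R or H/R library. MATN3 was at -1.12 ± 0.42 (adjusted p = 0.0684) and POSTN at -0.94 ± 0.63 (adjusted p = 0.277). When only the 6 GA+H/R and H/R libraries were fitted, the adjusted p was 5.13e-07 for THBS1, 5.19e-05 for THBS2, 0.00112 for MATN3 and 0.00118 for POSTN. Over all alternatives the adjusted p ranged between 6.33e-08 and 0.0629 for THBS1, between 7.80e-06 and 0.0803 for THBS2, between 3.07e-04 and 0.163 for MATN3 and between 2.11e-04 and 0.420 for POSTN. All 8 were also called lower without control 1, among 20.9% of loci called lower there.

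Macrophage markers moved the other way between these groups. The summed FPKM of the 11 markers with a row ranged from 179 to 196 in GA+H/R and from 28.3 to 33.9 in H/R libraries, and was 11.3, 82.2 and 92.5 in controls 1, 2 and 3. Relative to the median locus the sum ranged from 339 to 369 in GA+H/R and from 33.6 to 40.4 in H/R libraries. On that scale it was 4.52, 36.2 and 41.9 in controls 1, 2 and 3. Of 8 tested, 7 rose with gallic acid and 0 fell, and 3 of the 11 were at 1 FPKM or more in every library. CD14 and FCER1G passed the expression filter only through the GA+H/R libraries, where they were highest. The count thus in part reflects the filter. As deposited, 6 were tested, of which 5 rose and 0 fell. Of all 10550 loci, 3703 were called relative to the median locus, 55.9% of them toward higher levels. TYROBP and AIF1 were listed at 0 in control 1. Fibroblast markers, 9 tested, had 3 falling and 2 rising with gallic acid (median 0.11), or 3 falling and 4 rising without control 1, and 5 falling and 2 rising in H/R against control. Their summed level relative to the median locus, in which COL1A2, COL3A1 and VIM weigh most, ranged from 26391 to 26635 in GA+H/R, from 35075 to 35150 in H/R and from 51760 to 85183 in control libraries. Smooth muscle and pericyte markers, 7 tested, had 4 falling and 0 rising with gallic acid, and 2 falling and 1 rising in H/R against control. TAGLN and ACTA2 weigh most in their sum. Relative to the median locus this sum ran from 2523 to 2568 in GA+H/R and from 3093 to 3121 in H/R libraries. In control libraries it ran from 1125 to 1806. As deposited, the control sum was the highest, at 2800 to 3984, against 2597 to 2617 in H/R and 1336 to 1360 in GA+H/R. The part of cell composition in the changes of the matrix genes was not tested.

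Between GA+H/R and control, which shares its GA+H/R and control libraries with the comparisons above, all 8 tested genes fell, with 35.9% of loci called lower and a median of -2.15 against -0.05 for all loci. POSTN was at -3.35 ± 0.63 (adjusted p = 0.00116), THBS2 at -2.93 ± 0.34 (adjusted p = 5.42e-05) and MATN3 at -2.78 ± 0.42 (adjusted p = 2.99e-04). ELN had the smallest change, -1.32 ± 0.17 (adjusted p = 1.23e-04). In FPKM, the GA+H/R mean was 0.758% of the control mean for POSTN, 5.97% for FN1 and 6.92% for SPARC.

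Control 1 departed from controls 2 and 3 in a gene-specific way. Relative to the median locus, the mean of controls 2 and 3 exceeded control 1 by 8.31-fold for POSTN, 3.66-fold for MATN3, 2.80-fold for THBS2, 2.15-fold for THBS1 and 1.46-fold for SPARC. FN1 and TNC differed little, at 1.05-fold and 1.10-fold, and ELN was at 0.634-fold. Over all tested loci the quartiles of this log2 difference were -0.18 and 0.19. The summed macrophage markers given above were also lowest in control 1, although the macrophage marker MSR1 was at 5.13 FPKM there and at 1.24 and 0.869 in controls 2 and 3. Fibroblast markers were uneven in this respect. Control 1 had 390 FPKM of DCN (decorin), controls 2 and 3 had 1259 and 1251, while PRRX1, a transcription factor, was at 113, 103 and 107 FPKM in controls 1, 2 and 3. Their part in these differences was not tested.

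Ratios of genes within a library do not depend on how libraries are scaled. TNC relative to FN1 was at a log2 ratio of 0.14 ± 0.02 in GA+H/R, 0.34 ± 0.02 in H/R and 0.25 ± 0.04 in control libraries (SD, n = 3), with no overlap between groups. SPARC relative to FN1 was at 1.61 ± 0.02 in GA+H/R, 1.30 ± 0.01 in H/R and 1.38 ± 0.28 in control, with every GA+H/R library above every H/R library. ELN relative to FN1 was at -8.65 ± 0.33 in GA+H/R, -8.03 ± 0.19 in H/R and -8.74 ± 0.44 in control, and POSTN relative to FN1 at -9.54 ± 0.21, -8.83 ± 0.19 and -7.02 ± 1.73 in the same order of groups. The spread of the control ratio of POSTN came from control 1, where it was -9.02, a value within the range of the H/R libraries, against -5.95 and -6.11 in controls 2 and 3. THBS2 relative to THBS1 was at -1.42 ± 0.16 in GA+H/R, -1.17 ± 0.03 in H/R and -0.73 ± 0.22 in control, with no overlap between the groups. With 3 libraries against 3, a two-sided exact permutation test cannot go below p = 0.1. Of 24 such tests on these ratios, the lowest adjusted p was 0.185, and none passed.

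**Figure D3:**
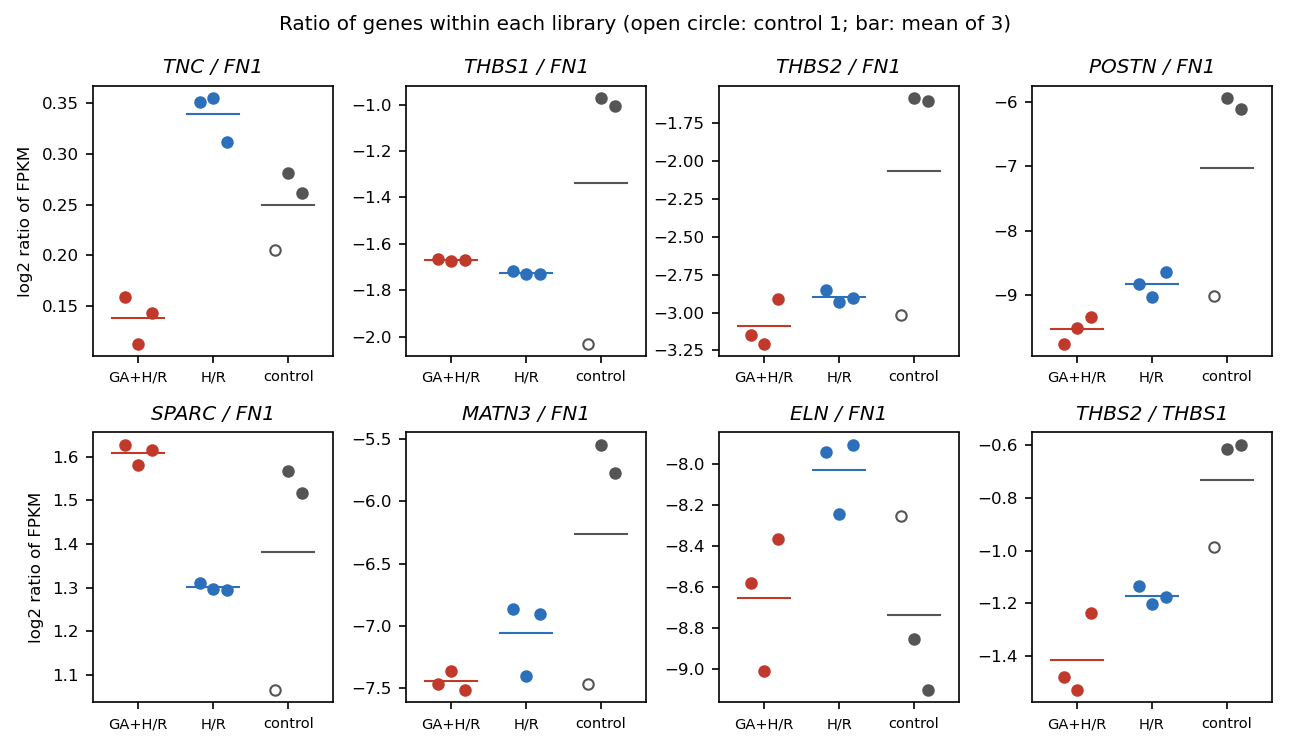
Log2 ratio of FPKM within each library for 7 genes over FN1 and for THBS2 over THBS1, with bars for the mean of 3 and an open circle for control 1. In control 1 the ratios of THBS1, THBS2, SPARC and MATN3 to FN1 lie below those of all H/R libraries and that of POSTN lies within their range, while for these genes the other controls lie above.

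The genes most like each of the 8 over the 9 libraries were found by the root mean square difference between log2 profiles, each centred on its own mean. FN1 was closest to ACAN (aggrecan), at 0.0787, and to TNC, at 0.0857. For TNC, ATP10D at 0.0860 was almost as near as FN1. SPARC was closest to RECK, a membrane-anchored inhibitor of metalloproteinases, with KIRREL next at 0.0540. MACF1, from the list of long housekeeping transcripts, followed for SPARC at 0.0565. THBS1 was closest to VLDLR, a lipoprotein receptor, at 0.101. THBS2 and MATN3 were closest to each other, at 0.188, and the collagen gene COL1A2 came next for THBS2 at 0.237. POSTN had no close neighbour, its nearest being SLC26A7, an anion transporter, at 0.310. ELN was closest to ZUFSP and SRRM1, neither of them a matrix gene, at 0.0836 and 0.110.

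Other matrix genes were counted from lists. As deposited, 0 of the other glycoproteins, matricellular relatives, elastic fibre genes, laminins and regulators below were called higher in H/R against control or in GA+H/R against H/R. Calls toward higher levels were rare among all loci on that scale, at 4.64% and 2.56% of calls in the same order. Relative to the median locus, of 22 other matrix glycoproteins tested, 11 fell and 2 rose in H/R against control (median -0.69), and 9 fell and 2 rose in GA+H/R against H/R (median -0.42). EDIL3, an integrin-binding glycoprotein, averaged 262 ± 3.28 FPKM in H/R and 3168 ± 1267 in control cells (log2 change -2.03, adjusted p = 4.50e-04). LTBP1, which holds latent TGF-beta in the matrix, fell in both comparisons, by 1.31 in H/R and by 0.96 in GA+H/R. TGFBI, a matrix protein induced by TGF-beta and chosen here after its values were seen, ran the other way. It averaged 821 FPKM in GA+H/R, 572 in H/R and 747 in control cells, rose by 1.16 in H/R against control (adjusted p = 0.00101), and rose by 1.19 in GA+H/R against H/R (adjusted p = 0.00225). As deposited its log2 changes were -0.30 and 0.52, so that the first turned sign.

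Of 9 relatives of the matricellular proteins, 6 fell and 0 rose in H/R against control, and 4 fell and 0 rose in GA+H/R against H/R. CYR61 and CTGF, matricellular proteins of the CCN family, were at -0.40 and -0.95 in H/R against control and at -1.62 and -1.04 in GA+H/R against H/R, each called. SMOC1, a relative of SPARC, fell by 1.74 in H/R and was at -0.62 (adjusted p = 0.167, and 0.00191 without control 1) in GA+H/R. SPP1 (osteopontin) was at -1.41 in H/R against control (adjusted p = 0.0878), and at -2.31 (adjusted p = 2.76e-05) without control 1.

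Genes of elastic fibre assembly, some of which are also in the list of other glycoproteins, numbered 14 tested. In H/R against control 5 fell and 1 rose (median -0.35), or 9 and 1 of 13 without control 1, and in GA+H/R against H/R 9 fell and 1 rose (median -0.68). FBLN5, a fibulin that carries elastin onto microfibrils, was at -0.38 in H/R (adjusted p = 0.0875, and 2.78e-04 without control 1) and fell by 1.40 in GA+H/R (adjusted p = 4.64e-04). LOXL2, a cross-linking enzyme, fell by 0.87 in H/R and by 1.15 in GA+H/R. Of 8 laminins and nidogens, which form basement membranes, 6 fell and 0 rose in either comparison. LAMB1 fell by 1.24 in H/R and by 0.92 in GA+H/R, while LAMB2 was at -0.18 in H/R (adjusted p = 0.0957) and fell by 1.39 in GA+H/R.

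Receptors of these proteins numbered 16 tested, of which 12 fell and 1 rose in H/R against control, and 10 fell and 3 rose in GA+H/R against H/R. The integrin subunits ITGAV and ITGA4 fell by 1.27 and 1.22 in H/R, and were at -0.22 and -0.14 in GA+H/R (adjusted p of 0.235 and 0.270). Without control 1, ITGAV was called there, at -0.23 (adjusted p = 4.42e-04). The receptors that rose with gallic acid include CD36, a scavenger receptor that binds thrombospondins, and STAB1 (stabilin-1), which clears SPARC and is made by macrophages. CD36 averaged 19.98 ± 3.53 FPKM in GA+H/R and 2.70 ± 0.386 in H/R cells (log2 change 3.19, adjusted p = 0.00128), and STAB1 averaged 34.3 ± 3.46 and 9.52 ± 2.44 in the same order (2.44, adjusted p = 0.0014). The summed macrophage markers given above moved in the same direction. Over all other loci that the table assigns to ECM-receptor interaction, 63 were tested, of which 35 fell and 6 rose in H/R against control, and 28 fell and 3 rose in GA+H/R against H/R.

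Proteases and cross-linking enzymes that act on the matrix were divided, with 8 of 18 falling and 4 rising in H/R against control, and 9 falling and 1 rising in GA+H/R against H/R. The aggrecanase gene ADAMTS4 averaged 81.0 ± 4.66 FPKM in H/R and 33.1 ± 10.9 in control cells, and fell to 12.0 ± 1.78 in GA+H/R. Of 17 regulators around TGF-beta, YAP and SRF, 9 fell and 2 rose in H/R against control, and 4 fell and 2 rose in GA+H/R against H/R. TGFBR2, the type II TGF-beta receptor, fell by 0.60 in H/R and by 0.48 in GA+H/R. TGFBR1, its partner, fell by 1.11 in H/R and rose by 0.29 in GA+H/R, a sign that turned to -0.37 on the deposited scale. Without control 1, 15 of the 18 proteases and cross-linking enzymes fell between GA+H/R and H/R while 1 rose. Of the 17 regulators 6 fell and 4 rose there, and of the 9 matricellular relatives 6 fell and 1 rose.

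**Figure D4:**
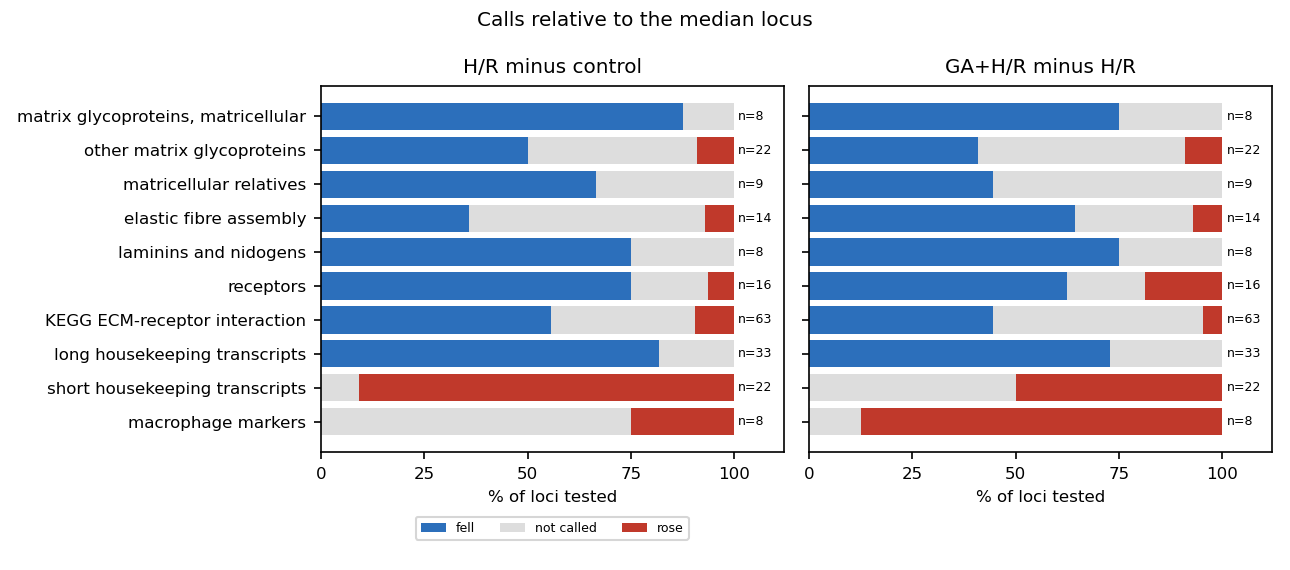
Share of tested loci that fell, were not called or rose relative to the median locus in H/R minus control (left) and GA+H/R minus H/R (right), with the number tested beside each bar. Of the matrix glycoproteins and matricellular genes 7 of 8 and 6 of 8 fell, long housekeeping transcripts fell in a similar share, and short housekeeping transcripts (medians of -0.25 and -0.24 as deposited) and macrophage markers have no falling members.

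The table's own annotation was used to see what the 9 genes share, which follows in part from how they were chosen. Calcium ion binding was assigned to 5 (THBS1, THBS2, SPARC, FBLN1 and MATN3), against 2.72% of all loci, and heparin binding to 4 (FN1, THBS1, THBS2 and POSTN), against 0.497%. The ECM-receptor interaction pathway holds 4 of them (FN1, TNC, THBS1 and THBS2), against 0.574% of loci. In the authors' deposited table, which gives a single test across the groups, the 8 tested genes were marked significant, with q-values from 1.60e-278 for TNC to 4.99e-47 for POSTN. FBLN1 had a q-value of 1 in the authors' deposited table. The share of all loci marked significant there is not given here, so these marks are not read as particular to the 8 genes.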

How the data were processed

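Gene expression was measured by RNA sequencing of rabbit primary cells, in 9 libraries (3 per group). Per the labels, purified total RNA went into a TruePrep kit for Illumina. The authors deposited FPKM values per locus, per the file headers, along with a p-value and q-value from a single test across groups. For the aligner and quantifier, the sources used here name none. The submitters' processing notes name the mouse builds GRCm38 and mm10 while the transcripts are from rabbit, so no coordinates are given. No genome or sequence table was used.

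Libraries were divided by the median of their ratios to the geometric mean library taken over the 8448 loci that reached 1 FPKM in all 9. A locus was tested if 3 libraries or more reached 1, and log2(FPKM + 1) was fitted in limma 3.58.1 (R 4.3.3; 3 group means, eBayes with trend and robust settings, two-sided). The fold changes are on that log2(value + 1) scale, which understates the change of low genes. Calls used a Benjamini-Hochberg adjusted p under 0.05 over all loci tested. The code was tested on simulated data. Depth is unknown, so precision rests on the 3 libraries per group.

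The genes, lists and scale were chosen with earlier results of these data known. Named genes were all 10 listed, up to 4 per list of largest change whose higher group averaged 10 FPKM or more, and the nearest profiles. TGFBI and the markers PTH, MSR1, TYROBP, AIF1, CD14, FCER1G, COL3A1, VIM and PRRX1 were named outside that rule. Alternatives were other scalings, pseudocount, filters, eBayes settings, 6-library fits, a replicate block and leaving out each library.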

Additional observations from a re-analysis of the deposited data

How the results depend on the processing

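No log2 change of the 8 tested genes changed direction under the 18 alternatives in any of 3 comparisons. Of these recomputed values 407 stayed on their side of the threshold, 14 lost a call (THBS1 and THBS2 between GA+H/R and H/R) and 8 gained a call (MATN3 and POSTN there, and ELN in H/R against control as deposited). POSTN gave no value when 1 FPKM in all 9 libraries was required. On the deposited scale 9922 loci were called in H/R against control, instead of 6225, and 7255 in GA+H/R against H/R, instead of 3703. Among calls, those toward higher levels made up 4.64% as deposited, 31.8% at equal totals and 50.7% relative to the median locus in H/R against control, and 2.56%, 42.3% and 55.9% between GA+H/R and H/R. Leaving out a library gave 5363 to 6278 calls in H/R against control, 2722 to 4536 between GA+H/R and H/R, with the highest count without control 1, and 6680 to 7259 between GA+H/R and control. Of the 8 genes it gave 4 to 8 calls between GA+H/R and H/R. Deviations of same-numbered libraries correlated between -0.02 and 0.03, which gives no sign of pairing by number but cannot exclude it. With the replicate block, 6040 loci and 7 genes were called in H/R against control, and 3408 loci and 6 genes after gallic acid. Between GA+H/R and control, that block gave 7260 loci and 8 genes. Without read depth, counting error of the low genes (POSTN, MATN3, ELN and FBLN1) could not be estimated.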
